A study of Medicago ruthenica with 9 samples.

Results

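The miRNAs described here are those of *M. ruthenica* leaves of the families miR160, miR164, miR165, miR167, miR169, miR170, miR172, miR319 and miR529, known for targeting transcription factors of auxin response and leaf development. These families were chosen with earlier results of these data known. Members were then taken by the family number in the name alone, and 41 of 595 names in the table met the rule (39 of 543 sequences). They were 7 names of miR160, 5 of miR164, 11 of miR167, 5 of miR169, 10 of miR172 and 3 of miR319, and no name belonged to miR165, miR170 or miR529. The libraries came from seedlings 4 weeks old at the start, grown 8 to a pot. Plants of the RW group (rewatered) went 15 days without water and were sampled 2 days after rewatering. Plants of the DS group (drought stress) were sampled after 15 days without water, at a soil moisture of 20%. CK plants (control) were watered every 3 days, held above 80% and sampled on the same day as DS. There were 3 biological replicates per group, and whether a library held 1 plant or several is not stated, so p-values measure the spread between these samples. RW leaves were 2 days older than DS and CK leaves, and age and treatment cannot be told apart in RW vs. DS and RW vs. CK.

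In plants a miRNA guides a silencing complex to mRNAs that pair with it nearly over its whole length, and the transcripts are cut or held from translation. In Arabidopsis, miR160 and miR167 target auxin response factors (ARF), the proteins that switch auxin-responsive genes. miR164 targets NAC factors that set organ boundaries, miR169 targets NF-YA subunits, miR172 targets AP2-like factors of phase change and flowering, and miR319 targets TCP factors that shape the leaf blade. A mature miRNA is cut from a hairpin with 2 arms, the guide from one arm and a usually scarce partner from the other.

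The leading guides are shown with bases 2 to 8 in capitals (5′ to 3′, T for U as in the table). These bases are called the seed here.
mtr-miR160a: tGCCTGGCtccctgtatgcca
mtr-miR164a: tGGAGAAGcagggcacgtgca
gma-miR167c_R+1: tGAAGCTGccagcatgatctga
mtr-miR169h: tGAGCCAAagatgacttgccgg
mtr-miR172b: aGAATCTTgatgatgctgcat
mtr-miR319a-3p: tTGGACTGaagggagctccc
Names give the miRBase entry matched, with L and R for bases gained or lost at the left and right end and ss for substitutions. No genome position is given, since the table lists only assembled transcripts. The guide seed of its family stood at bases 2 to 8 in 24 of the 41 names, 1 or more bases off in 3, and was absent in 14. The seed of mtr-miR319a-3p was also held by 1 name of the miR159 family, and the other 5 seeds were found only within their own family in this table. The seed of each family was that of its most abundant name, which therefore counts as in place by definition. Names with the seed in place had a median level of 87.9 normalized counts, names with it shifted 92.8 and names without it 3.61. These medians are not independent of how the seed was chosen. Among the 39 sequences, 17 were 21 nt long (43.6%, against 31.5% of all 543) and 2 were 24 nt long (5.13%, against 44.8% of all), and 26 began with T (66.7%, against 44.8%).

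The values are normalized counts, read counts scaled by the authors with 1 factor per library, and the table summed to 1237470 to 1718280 per library. The smallest value above 0 was 2.30 to 3.09 in RW libraries, 3.94 to 4.21 in DS libraries and 0.652 to 1.55 in CK libraries. A value of 0 therefore allows a higher level in DS than in CK. The number of members above 0 was 29 to 33 in RW, 26 to 29 in DS and 37 to 38 in CK. Families taken as a sign of rRNA or tRNA fragments (miR5368, miR2916, miR6300 and miR3630, 10 names) held 1.80 to 2.35% of the listed values in RW, 1.08 to 2.27% in DS and 0.482 to 0.609% in CK, and their part in the results was not tested. mtr-miR166a, the most abundant name, made up 57.2 to 67.8% of the listed values in RW, 47.9 to 58.6% in DS and 50.6 to 61.9% in CK.

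The levels spanned several orders. 3 sequences averaged over 1000 normalized counts, while 21 of the 41 names averaged under 20. The members together held 1.68 to 3.26% of the listed values in RW, 2.34 to 3.01% in DS and 3.35 to 3.81% in CK, so every RW and DS library lay under every CK library in this share. Their summed level was 35223 ± 6028 in RW, 36982 ± 4817 in DS and 49313 ± 6903 in CK (SD, n = 3 each). DS and CK overlapped in this sum, at up to 42496 in DS and down to 41490 in CK, and RW and CK did not.

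**Figure D1:**
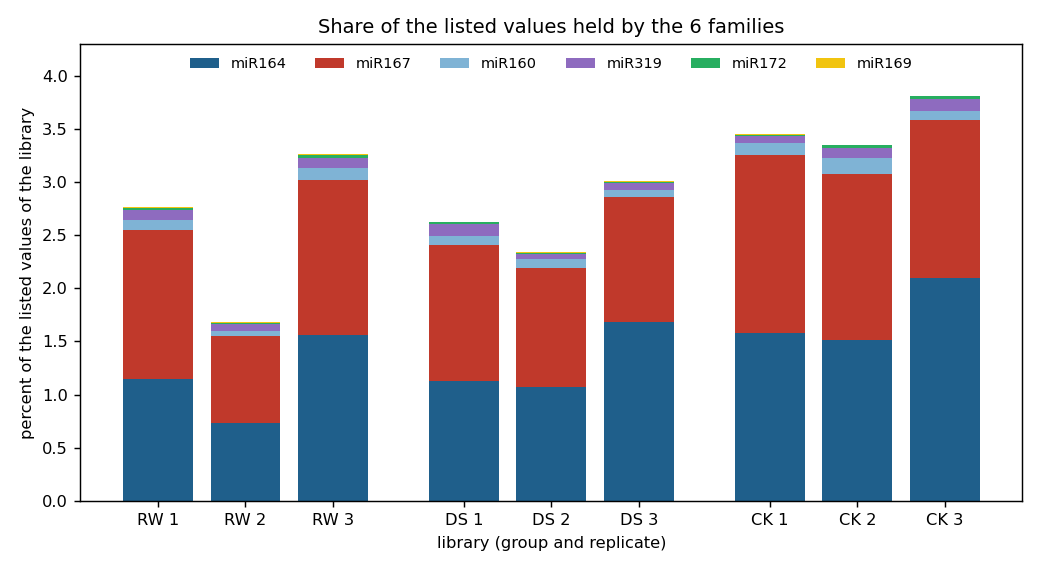
Percent of the listed values of each library (y axis) held by the 6 families, stacked by family, for the RW, DS and CK libraries (x axis). miR164 and miR167 make up nearly the whole of every bar, and the RW and DS bars, at 1.68 to 3.26%, end under the CK bars at 3.35 to 3.81%.

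Of the 41 names, 31 reached 5 normalized counts in at least 3 libraries and were tested. None passed an adjusted p of 0.05 in limma in any of the 3 contrasts or in the joint test of the groups, where 2.36% of all 339 tested names passed in RW vs. DS, 5.31% in RW vs. CK, 5.31% in DS vs. CK and 7.08% in the joint test. The smallest adjusted p of a member was 0.0995 in RW vs. DS, 0.122 in RW vs. CK, 0.101 in DS vs. CK and 0.0746 in the joint test (limma). All but that of RW vs. CK belong to nta-miR172c_R+1, which was at 0 in all DS libraries. It met the filter through RW and CK libraries alone, so these values do not stand apart from the filter. At an unadjusted p under 0.05, 2 members were called in RW vs. DS (14.2% of all tested names), 3 in RW vs. CK (15.6%), 3 in DS vs. CK (19.5%) and 3 in the joint test (18.9%), shares of the members below those of the table. nta-miR172c_R+1 is among those called in each of these but RW vs. CK. lja-miR172a_R+1, likewise at 0 in all DS libraries, is among those of DS vs. CK and the joint test. The test of the study's methods, which compares 2 groups with unequal variances and no adjustment, called 2 of 41 members in RW vs. DS (3.53% of all 595 names), 3 in RW vs. CK (6.72%) and 3 in DS vs. CK (5.55%). Scaling by the upper quartile of the values above 0 ended the count of none, with 1, 7 and 23 of 34 tested members passing in RW vs. DS, RW vs. CK and DS vs. CK. That scaling also moved the median of all tested names to 0.76, -0.92 and -1.74 (log2), beside 0.68, -1.20 and -1.92 for the members. The share of all tested names passing under it is not given here, so these counts are not set against the table. The scaling rests on the number of low values listed, and 347 to 376 names were above 0 in RW, 283 to 305 in DS and 423 to 489 in CK.

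Most members had a negative log2 fold change against CK, in 25 of 31 (80.6%, against 58.7% of all tested names) in RW vs. CK and 23 of 31 (74.2%, against 65.2%) in DS vs. CK. In RW vs. DS, 10 of 31 were negative (32.3%, against 40.7%). Pairs of names with identical values count as separate names here, and each such pair was negative in RW vs. CK. They are mtr-miR160a with mtr-miR160c_1ss15AT, mtr-MIR160b-p5_1 with mtr-MIR160b-p5_2, and mtr-miR167b-5p_R+2_1 with mtr-miR167b-5p_R+2_2. The median log2 fold change of the members was 0.05 in RW vs. DS, -0.40 in RW vs. CK and -0.49 in DS vs. CK, beside 0.16, -0.11 and -0.36 over all tested names. Without RW replicate 2 the median of the members was -0.19 in RW vs. CK and 0.23 in RW vs. DS, and without RW replicate 3 it was -0.01 in RW vs. DS. Among the names above 0 in all libraries (186 in the table), the medians in DS vs. CK were -0.42 for the members and -0.01 for all. In RW vs. DS, 3 members were higher without overlap of the groups (9.14% of all tested names) and 0 were lower (6.19%). In RW vs. CK, 0 were higher (10.3%) and 5 were lower (10.9%), and in DS vs. CK, 0 were higher (9.73%) and 9 were lower (18.3%). Among the 9 are mtr-miR160a and mtr-miR160c_1ss15AT, which share a sequence and all values. nta-miR172c_R+1, also among the 3 of RW vs. DS, and lja-miR172a_R+1 are among the 9 too. Both were at 0 in all DS libraries and met the filter through RW and CK libraries.

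**Figure D2:**
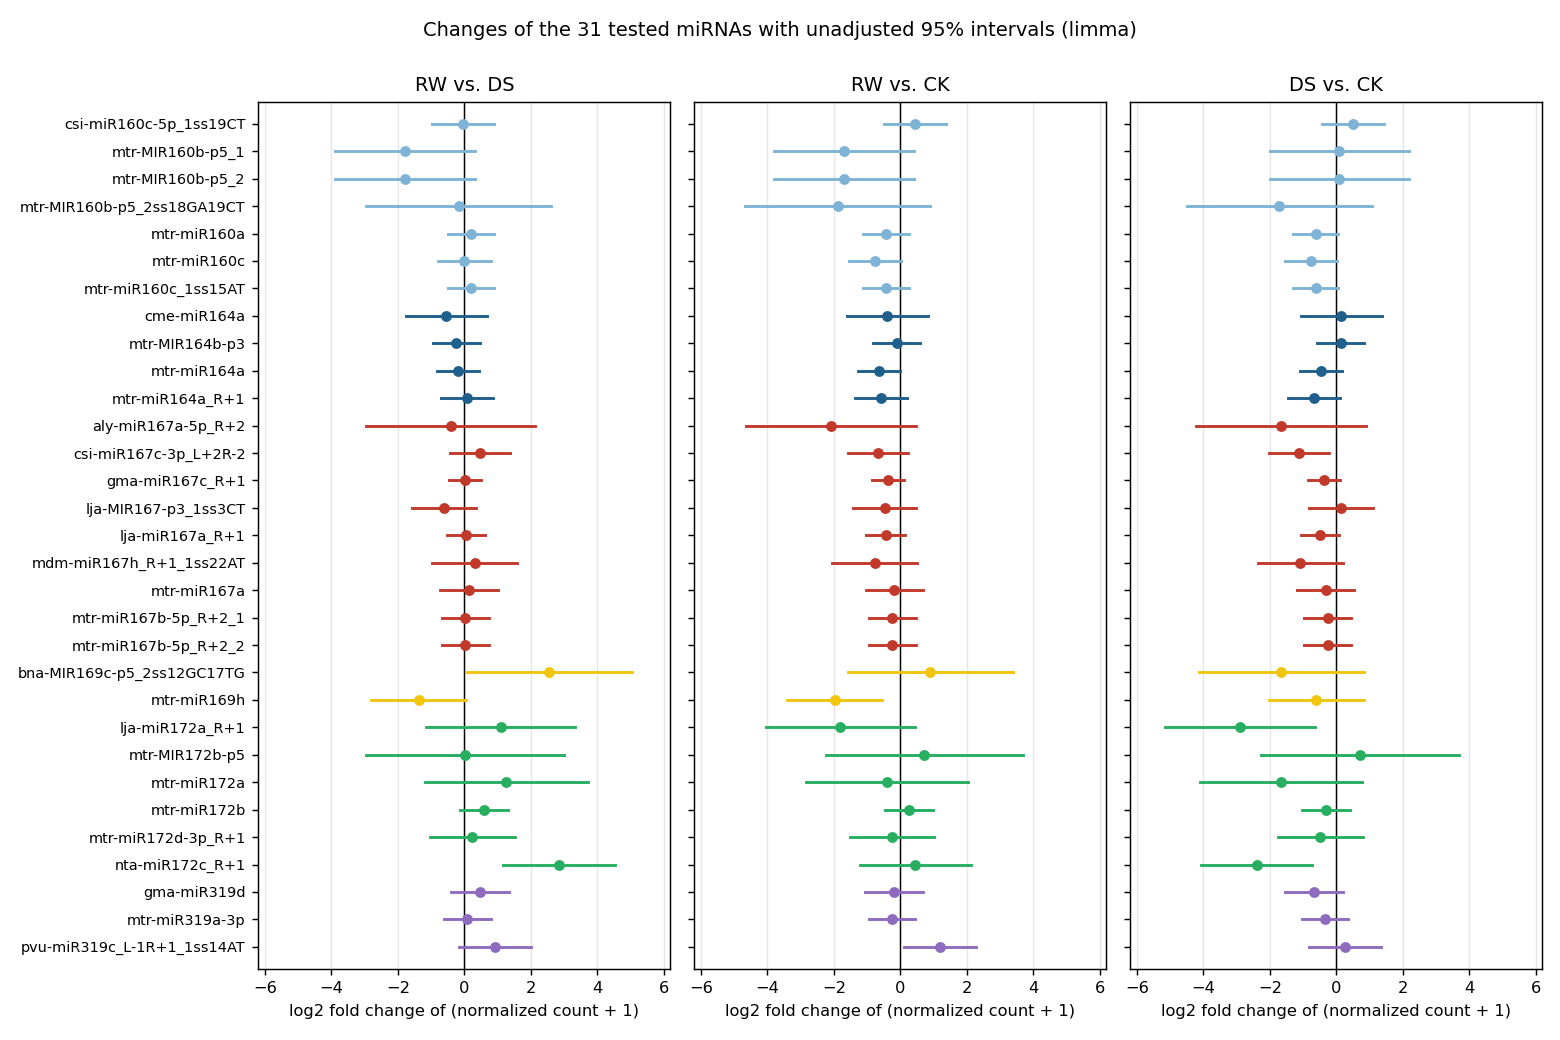
log2 fold change of (normalized count + 1) for the 31 tested names (points) with unadjusted 95% intervals from limma (lines), in RW vs. DS, RW vs. CK and DS vs. CK, coloured by family. Abundant guides have short intervals close to 0, low-level names have wide ones, and 25 and 23 of 31 points lie left of 0 in the 2 panels against CK.

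miR160 was led by mtr-miR160a, which had 939, 593 and 1140 normalized counts in RW leaves, 848, 882 and 562 in DS leaves and 1247, 1333 and 934 in CK leaves. All DS values lay under all CK values, and RW overlapped both. In RW vs. CK its log2 fold change was -0.43 (95% interval -1.12 to 0.26, adjusted p = 0.587 in limma), and in DS vs. CK -0.63 (-1.31 to 0.06, adjusted p = 0.292). The same sequence and values are listed a second time as mtr-miR160c_1ss15AT. The second guide, mtr-miR160c, had 224, 131 and 191 in RW, 190, 242 and 121 in DS and 316, 379 and 231 in CK. All RW values lay under all CK values, with a log2 fold change of -0.76 (-1.56 to 0.03, adjusted p = 0.335, limma), and was 16.8 to 23.9% of mtr-miR160a in RW, 21.6 to 27.4% in DS and 24.7 to 28.4% in CK. csi-miR160c-5p_1ss19CT averaged higher in RW and DS than in CK, with 51.5, 113 and 87.6 in RW, 53.6, 86.8 and 122 in DS and 60.5, 55.2 and 59.9 in CK, and its groups overlapped. These guides share the seed and differ toward the 3′ end.
mtr-miR160c: tGCCTGGCtccctgaatgcca
csi-miR160c-5p_1ss19CT: tGCCTGGCtccctgtatgttt
mtr-MIR160b-p5_1: tATGAGGAgccaagcatattc
mtr-MIR160b-p5_2: tGCCTGGCtccctgtatg
The last 2 have different sequences, and only the second holds the guide seed, yet the table gives both the same value in every library, at 5.52, 0 and 16.0 in RW, 11.0, 11.8 and 28.6 in DS and 8.87, 22.3 and 15.6 in CK. To which of the sequences these values belong was not tested. The level of the family was 1174 ± 306 in RW, 1075 ± 182 in DS and 1577 ± 284 in CK (SD, n = 3 each), with no overlap of DS and CK, at a ratio of 0.682.

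miR164 held the most abundant member, mtr-miR164a, at 14127, 11471 and 18630 normalized counts in RW leaves, 13720, 14832 and 22094 in DS leaves and 22764, 17673 and 28902 in CK leaves. The highest RW and DS values overlapped the lowest CK value. In RW vs. CK its log2 fold change was -0.65 (95% interval -1.27 to -0.02, unadjusted p = 0.0430, adjusted p = 0.298 in limma), and in DS vs. CK -0.46 (-1.08 to 0.17, adjusted p = 0.387). Its form with 1 more base, mtr-miR164a_R+1, had 93.9, 71.9 and 89.5 in RW, 93.0, 53.9 and 102 in DS and 122, 114 and 153 in CK, all RW and DS values under all CK values. Its log2 fold change was -0.60 in RW vs. CK (adjusted p = 0.497, limma) and -0.68 in DS vs. CK (adjusted p = 0.297). This form was 0.480 to 0.665% of mtr-miR164a in RW, 0.364 to 0.678% in DS and 0.529 to 0.644% in CK, ranges that overlap.
mtr-miR164a_R+1: tGGAGAAGcagggcacgtgcat
mtr-MIR164b-p3: cATGTGCCcctcttccccatc
The sequence from the other arm, mtr-MIR164b-p3, lacks the guide seed and is listed on the same assembled transcript as mtr-miR164a. It had 717, 1100 and 780 normalized counts in RW, 639, 1053 and 1515 in DS and 860, 959 and 945 in CK, and the groups overlapped in every contrast. As a percentage of mtr-miR164a it was 4.19 to 9.59% in RW, 4.65 to 7.10% in DS and 3.27 to 5.43% in CK, again with overlap. The guide and this arm thus had log2 fold changes of -0.65 and -0.11 in RW vs. CK and of -0.46 and 0.13 in DS vs. CK, and the difference between them was not tested. The family summed to 15707 ± 3494 in RW, 18051 ± 4977 in DS and 24182 ± 5645 in CK (SD, n = 3 each).

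miR167 had the most names, and 1 sequence, gma-miR167c_R+1, made up 67.2% of its level. It had 11655, 9926 and 12236 normalized counts in RW leaves, 11816, 10393 and 11294 in DS leaves and 17859, 11845 and 14376 in CK leaves. The log2 fold change was 0.01 in RW vs. DS (95% interval -0.47 to 0.49), -0.37 in RW vs. CK (-0.85 to 0.12, adjusted p = 0.497 in limma) and -0.38 in DS vs. CK (-0.86 to 0.11, adjusted p = 0.356). DS lay under CK without overlap, by a margin of less than 1% between 11816 in DS and 11845 in CK. lja-miR167a_R+1, the second guide, had 4853, 2844 and 3936 in RW, 2889, 4352 and 3895 in DS and 4952, 5875 and 4706 in CK. Its DS values also lay under its CK values, with a log2 fold change of -0.49 (-1.07 to 0.08, adjusted p = 0.297, limma). The family level was 16842 ± 2456 in RW, 16555 ± 231 in DS and 21899 ± 2970 in CK (SD, n = 3 each), lower than CK without overlap in both RW (ratio 0.769) and DS (ratio 0.756), and likewise as a share of the listed values.

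The miR167 guides shown keep the seed and differ at the 3′ end, and the sequences from the other arm do not hold it. A further guide name with 2 more bases at the 5′ end, csi-miR167b-5p_L+2, holds it shifted and had at most 11.8 normalized counts.
lja-miR167a_R+1: tGAAGCTGccagcatgatctt
mtr-miR167b-5p_R+2_1: tGAAGCTGccagcatgatctgat
mtr-miR167b-5p_R+2_2: tGAAGCTGccagcatgatctgtt
csi-miR167c-3p_L+2R-2: tCAGGTCAtcttgcagcttca
lja-MIR167-p3_1ss3CT: aATAGATCatatggcagcttcacc
The pair mtr-miR167b-5p_R+2_1 and mtr-miR167b-5p_R+2_2 is a second case of different sequences with identical values, at 558, 424 and 763 in RW, 467, 794 and 459 in DS and 756, 524 and 750 in CK. The other-arm sequence csi-miR167c-3p_L+2R-2 had 79.2, 87.4 and 133 in RW, 121, 47.2 and 60.7 in DS and 160, 134 and 174 in CK. All RW and DS values lay under all CK values, in RW by the narrow margin between 133.3 in RW and 133.9 in CK. In DS vs. CK its log2 fold change was -1.13 (95% interval -2.02 to -0.23, unadjusted p = 0.0186, adjusted p = 0.167 in limma). Without DS replicate 1, the highest DS library, it was -1.52 with an adjusted p of 0.0415 (limma). Without DS replicate 2 it was -0.84 (adjusted p = 0.288) and without DS replicate 3 -1.02 (adjusted p = 0.251). Leaving out a CK library gave adjusted p of 0.268 to 0.369 (limma). In RW vs. CK it was -0.66 (adjusted p = 0.517). The arm sequence lja-MIR167-p3_1ss3CT had 122, 45.8 and 74.0 in RW, 70.9, 142 and 150 in DS and 110, 109 and 94.6 in CK, with overlap throughout. mdm-miR167h_R+1_1ss22AT had 23.0, 7.46 and 23.4 in RW, 9.46, 10.1 and 21.4 in DS and 31.7, 23.5 and 30.2 in CK. It lay under CK in all RW and DS libraries, in RW by the bare margin between 23.446 in RW and 23.452 in CK. The adjusted p was 0.587 in RW vs. CK and 0.297 in DS vs. CK (limma). The low-level aly-miR167a-5p_R+2 was listed at 0, 0 and 3.70 in RW, 0, 10.1 and 0 in DS and 10.7, 2.58 and 7.55 in CK.

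**Figure D3:**
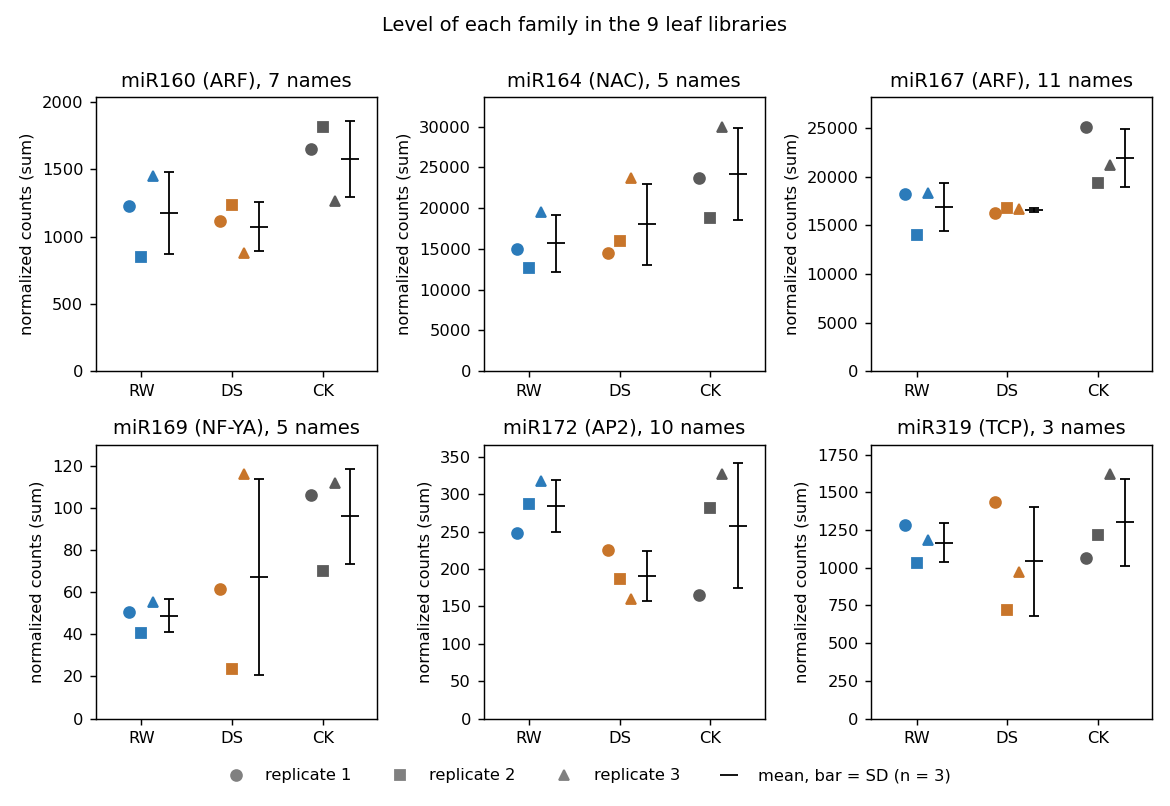
Summed normalized counts (y axis, from 0) of each family in the RW, DS and CK libraries (x axis), one point per replicate with the mean and SD beside it. miR167 in RW (mean 16842) and DS (16555) sits under CK (21899) without overlap, miR169 in RW (mean 48.9) also sits under CK (95.9), and miR172 is the family whose RW libraries (mean 284) all lie above DS (190).

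miR169 was scarce in these leaves. Its leading guide mtr-miR169h had 42.3, 12.8 and 11.1 normalized counts in RW leaves, 42.6, 23.6 and 116 in DS leaves and 83.7, 58.6 and 86.8 in CK leaves. All RW values lay under all CK values, and DS spread over the range of both. The log2 fold change was -1.98 in RW vs. CK (95% interval -3.41 to -0.55, unadjusted p = 0.0111, adjusted p = 0.122 in limma), -1.37 in RW vs. DS (-2.80 to 0.06, adjusted p = 0.352) and -0.61 in DS vs. CK (-2.04 to 0.82, adjusted p = 0.620). The last 2 values turned on single DS libraries, at -1.88 and -0.09 without DS replicate 2 and at -0.76 and -1.22 without DS replicate 3. The other sequence with the guide seed, aly-miR169d-5p_R+1, was listed at 0 in all RW and DS libraries and at 3.91, 4.65 and 7.80 in CK.
aly-miR169d-5p_R+1: tGAGCCAAggatgacttgccgg
bna-MIR169c-p5_2ss12GC17TG: tAAAAGTTactctaggga
Of these CK values, 3.91 lies under the smallest values that DS libraries list (3.94 to 4.21), and 4.65 and 7.80 lie above them. All lie above the smallest values that RW libraries list (2.30 to 3.09). The name did not reach the filter, and in the fit without a filter it passed in RW vs. CK (adjusted p = 0.0464, limma) and DS vs. CK (adjusted p = 0.0494).

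The second name of miR169 by level, bna-MIR169c-p5_2ss12GC17TG, lacks the guide seed. It had 8.28, 16.0 and 24.7 normalized counts in RW, 18.9, 0 and 0 in DS and 6.26, 3.72 and 17.1 in CK. The log2 fold change in RW vs. DS was 2.56 (95% interval 0.06 to 5.05, unadjusted p = 0.0453, adjusted p = 0.320 in limma), and it was 1.84 without DS replicate 2 or 3 and 0.97 after raising low values to one floor of 4.21. Without DS replicate 1, the only DS library above 0, DS is listed at 0 throughout and the adjusted p was 0.0268. This 18-nt sequence and gma-MIR164f-p5_2ss11TA17GA, also 18 nt, are listed on the same assembled transcript as 2 names of miR5368, one of the fragment-like families. One of those, gma-MIR5368-p3_2ss1AT18CA, had 10753, 25276 and 12998 in RW, 6354, 7059 and 12991 in DS and 3429, 3081 and 3669 in CK. Whether these 2 members come from a miRNA hairpin was not tested. The level of the miR169 family was 48.9 ± 7.66 in RW, 67.0 ± 46.5 in DS and 95.9 ± 22.6 in CK (SD, n = 3 each), lower in RW than in CK without overlap in level and share, at a ratio of 0.510.

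miR172 was led by mtr-miR172b, with 210, 257 and 263 normalized counts in RW leaves, 188, 154 and 146 in DS leaves and 133, 238 and 264 in CK leaves. Every RW value lay above every DS value, and CK overlapped both. The log2 fold change was 0.58 in RW vs. DS (95% interval -0.15 to 1.30, adjusted p = 0.405 in limma), 0.26 in RW vs. CK (-0.47 to 0.98) and -0.32 in DS vs. CK (-1.05 to 0.40), and in RW vs. CK its sign turned to -0.048 without CK replicate 1 and to -0.54 under upper-quartile scaling. mtr-miR172d-3p_R+1 is as long as mtr-miR172b and differs in its last base. It keeps the seed, as do the forms with 1 more base, nta-miR172c_R+1 and lja-miR172a_R+1. The other-arm sequence mtr-MIR172b-p5 lacks the seed.
mtr-miR172d-3p_R+1: aGAATCTTgatgatgctgcag
nta-miR172c_R+1: aGAATCTTgatgatgctgcatt
lja-miR172a_R+1: aGAATCTTgatgatgctgcagt
mtr-MIR172b-p5: tGTAGCATcatcaagattcat
nta-miR172c_R+1, which is mtr-miR172b with 1 more base, had the lowest p of the tested members in RW vs. DS and DS vs. CK, with 7.36, 8.53 and 3.70 in RW, 0 in all DS libraries and 2.87, 4.03 and 6.54 in CK. Its adjusted p was 0.0995 in RW vs. DS, 0.101 in DS vs. CK and 0.0746 in the joint test (limma), and with a pseudocount of 0.1 these were 0.0244, 0.0215 and 0.0177. In RW vs. DS and DS vs. CK they were 0.218 and 0.223 with a pseudocount of 5, and 0.535 and 0.803 after raising low values to one floor of 4.21. The name met the filter through RW and CK libraries alone, so its contrasts with DS do not stand apart from the filter. Part of its RW and CK values lie under the smallest value listed in DS libraries (3.94 to 4.21). As a share of mtr-miR172b it was 1.41 to 3.50% in RW and 1.69 to 2.48% in CK.

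The other form of this kind, lja-miR172a_R+1, is mtr-miR172d-3p_R+1 with 1 more base. It was listed at 0, 0 and 8.64 normalized counts in RW, at 0 in all DS libraries and at 6.78, 5.58 and 7.04 in CK, and its CK values lay above the smallest values listed in DS. The unadjusted p in DS vs. CK was 0.0164 (adjusted p = 0.159, limma), for a name that met the filter through its CK libraries and RW replicate 3, with none of DS. Its contrast with DS thus does not stand apart from the filter. The log2 fold change was -2.90, and -0.51 after raising low values to one floor of 4.21 (adjusted p = 0.433, limma). mtr-miR172d-3p_R+1 itself had 10.1, 11.7 and 28.4 in RW, 22.1, 10.1 and 8.93 in DS and 16.7, 17.4 and 20.6 in CK, with overlap in every contrast. The other arm, mtr-MIR172b-p5, had 13.8, 9.59 and 0 in RW, 11.0, 11.8 and 0 in DS and 0, 3.10 and 7.55 in CK. The family level was 284 ± 34.9 in RW, 190 ± 33.1 in DS and 258 ± 83.0 in CK (SD, n = 3 each), without overlap of RW and DS in level and with overlap in share of the listed values.

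**Figure D4:**
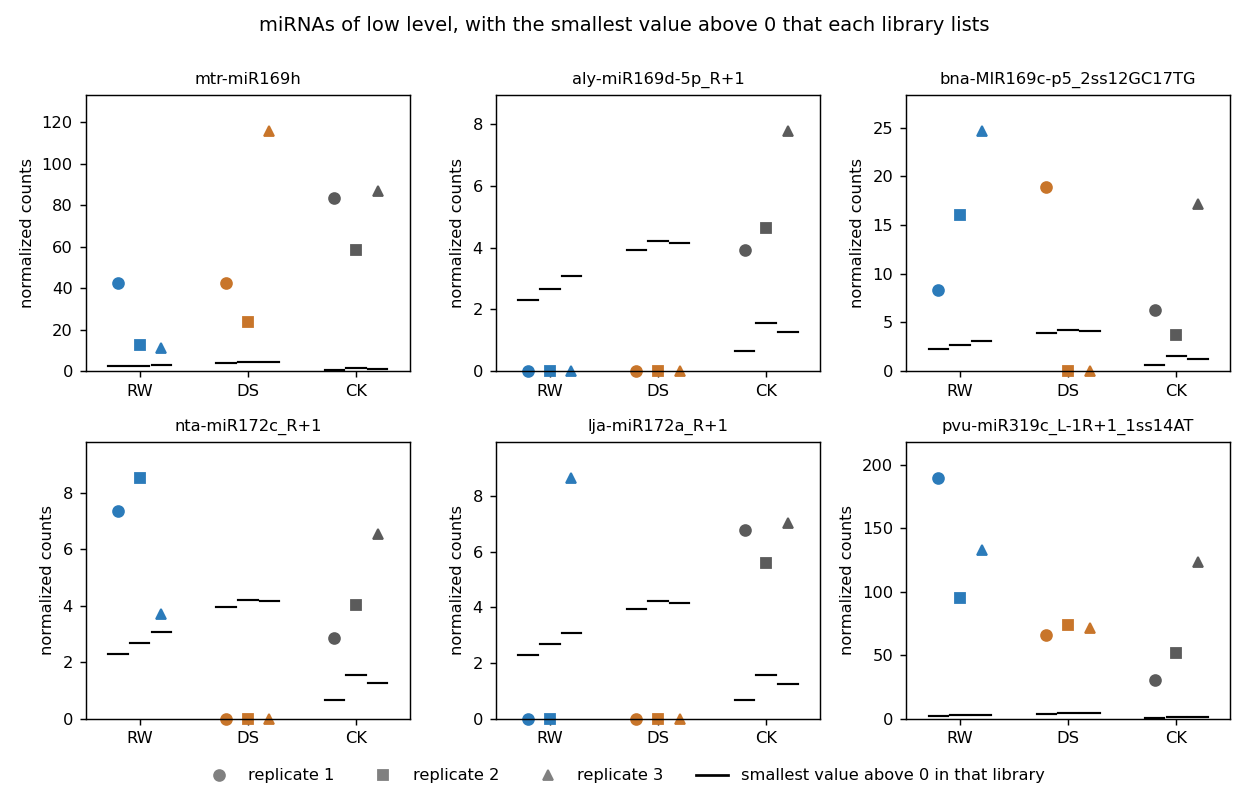
Normalized counts (y axis, from 0) of 6 names of low or moderate level in the RW, DS and CK libraries (x axis), one point per replicate, with a black line at the smallest value above 0 that the library lists. The DS points of nta-miR172c_R+1, lja-miR172a_R+1 and aly-miR169d-5p_R+1 are at 0 under lines at 3.94 to 4.21, while mtr-miR169h lies well above its lines.

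miR319 had 3 names. mtr-miR319a-3p had 963, 829 and 837 normalized counts in RW leaves, 1205, 554 and 828 in DS leaves and 842, 978 and 1369 in CK leaves, and all groups overlapped. It had a log2 fold change of 0.09 in RW vs. DS (95% interval -0.60 to 0.79), -0.25 in RW vs. CK (-0.95 to 0.44) and -0.34 in DS vs. CK (-1.04 to 0.35). gma-miR319d had 133, 108 and 213 in RW, 162, 94.4 and 75.0 in DS and 193, 186 and 129 in CK, with overlap throughout. Both further names start 1 base later than mtr-miR319a-3p, so their bases 2 to 8 differ from its seed.
gma-miR319d: tGGACTGAaggggagctccttc
pvu-miR319c_L-1R+1_1ss14AT: tGGACTGAagggtgctccttc
pvu-miR319c_L-1R+1_1ss14AT was the only tested member with an unadjusted p under 0.05 and a higher level than CK. It had 190, 94.9 and 133 in RW, 66.2, 74.1 and 71.4 in DS and 30.8, 52.1 and 123 in CK. Every RW value lay above every DS value, whereas RW and CK overlapped through CK replicate 3. In limma its log2 fold change was 1.18 in RW vs. CK (0.10 to 2.27, unadjusted p = 0.0352, adjusted p = 0.280 in limma) and 0.92 in RW vs. DS (-0.17 to 2.00, adjusted p = 0.373). The family level was 1167 ± 128 in RW, 1044 ± 361 in DS and 1301 ± 288 in CK (SD, n = 3 each).

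Other families of the same processes were read by the same fit. Of 6 names of miR390 and miR393, which act in auxin signalling through trans-acting siRNAs and auxin receptors, 5 were tested. In limma 0 of them passed in RW vs. DS (2.36% of all tested names), RW vs. CK (5.31%) or DS vs. CK (5.31%). In limma an unadjusted p under 0.05 was found for 1 in RW vs. DS (14.2% of all tested names), 0 in RW vs. CK (15.6%) and 1 in DS vs. CK (19.5%). Their median log2 fold change was 0.27, -0.06 and -1.10 in these contrasts, beside 0.16, -0.11 and -0.36 over all tested names. In DS vs. CK 5 of 5 were negative, against 65.2% of all tested names. Of 57 names of miR156, miR157, miR159, miR166, miR171 and miR396, which target SPL, MYB, HD-ZIP III, GRAS and GRF factors, 47 were tested. At an adjusted p under 0.05 (limma), 1 of these was higher and 1 lower in RW vs. DS, where 2.36% of all tested names passed. In RW vs. CK 2 were higher (5.31% of all tested names passed), and in DS vs. CK 0 passed (5.31%). At an unadjusted p under 0.05 there were 12 in RW vs. DS (14.2% of all tested names), 4 in RW vs. CK (15.6%) and 10 in DS vs. CK (19.5%). The median log2 fold change of these 47 was 0.03 in RW vs. DS, -0.07 in RW vs. CK and -0.13 in DS vs. CK, beside 0.05, -0.40 and -0.49 for the members described above.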

How the data were processed

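Small RNA of leaves was measured in 9 libraries, 3 each of RW, DS and CK, grouped by the sample labels. Per the labels, libraries were made with a TruSeq Small RNA kit from about 5 µg of total RNA and sequenced on an Illumina HiSeq 2500. With ACGT101-miR the authors discarded reads of adapters, low complexity, rRNA, tRNA, snRNA, snoRNA and repeats, and they matched sequences of 18 to 25 nt to miRBase precursors. The deposited values are a signal, in which each library's read counts were rescaled by its own factor. The study gives read totals by group, not by library, and the basis of the factor was not given in the sources used here, so no counting interval is given.

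Where a name filled several lines, 1 was kept. Names of at least 5 in at least 3 libraries were tested on log2(value + 1) with limma 3.58.1 (mean-variance trend, R 4.3.3) in 1 fit of the 3 groups, with Benjamini-Hochberg adjustment over all 339 names and a threshold of 0.05. The fit was tested on simulated data. Family levels are sums over different sequences and had no test. Python 3.11.15, pandas 2.3.3 and matplotlib 3.10.9 served for tables and figures. Alternatives covered the pseudocount, the filter, the scaling, low values, duplicate names, the replicate block, the groups fitted, the test of the study's methods and each library left out.

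Named are the 3 names of highest mean per family, every member that passed, the 5 lowest unadjusted p per contrast, and members above 0 in all libraries of 1 group and none of another. One item that this rule selects is not reported here. mdm-miR167h_R+1_1ss22AT, mtr-miR167b-5p_R+2_2, mtr-miR160c_1ss15AT, lja-MIR167-p3_1ss3CT and gma-MIR164f-p5_2ss11TA17GA are named outside this rule, after their values were seen. The members and lists were chosen with earlier results of these data known.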

Additional observations from a re-analysis of the deposited data

How the results depend on the processing

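The count of members that passed stayed at 0 in every contrast with a pseudocount of 5, a minimum of 20, scaling to the total of the table, median-of-ratios scaling, low values raised to a common level, only names above 0 in all libraries, 1 row per sequence and only the groups compared. The libraries showed no sign of pairing by replicate number (correlations of same-numbered libraries -0.15 to 0.06, others -0.14 to 0.19), which does not exclude it. With the replicate block 0 members passed, as without it. With a pseudocount of 0.1 the count was 1 in RW vs. DS, DS vs. CK and the joint test (nta-miR172c_R+1), and without the filter 1 in RW vs. CK, DS vs. CK and the joint test (aly-miR169d-5p_R+1). At an unadjusted p it was 2, 3, 3 and 3, and by the test of the study's methods 2, 3 and 3. Leaving out 1 library gave 0 to 1 in RW vs. DS, DS vs. CK and the joint test, and 0 in RW vs. CK. The 1 came without DS replicate 1, and was bna-MIR169c-p5_2ss12GC17TG in RW vs. DS and the joint test and csi-miR167c-3p_L+2R-2 in DS vs. CK. The count tests edgeR and DESeq2 were not run, since whole reads could not be recovered by the rule set for them.

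Under upper-quartile scaling 1, 7, 23 and, jointly, 22 members passed, and the share of all tested names passing under it is not given here. The upper quartile of values above 0 was 91.1 to 99.3 in RW, 128 to 184 in DS and 43.8 to 60.2 in CK, where more low values are listed, and the median of all tested names moved from 0.16 to 0.76 in RW vs. DS, from -0.11 to -0.92 in RW vs. CK and from -0.36 to -1.74 in DS vs. CK. Under it the log2 ratios of family level in RW vs. DS, RW vs. CK and DS vs. CK were 0.72, -1.26 and -1.98 for miR160, 0.47, -1.45 and -1.92 for miR164, 0.65, -1.23 and -1.88 for miR167, 1.17, -0.63 and -1.80 for miR172, 0.76, -0.95 and -1.71 for miR319, and 0.57, -1.32 and -1.89 for all members. For miR169 they were 0.27, -1.81 and -2.08. Signs turned in RW vs. DS for miR164 (-0.20 as deposited), miR169 (-0.46) and all members (-0.07), and in RW vs. CK for miR172 (0.14). mtr-miR172b turned in RW vs. CK, to -0.54 under this scaling, and its values with 1 library left out ran between -0.048 (without CK replicate 1) and 0.45 (without CK replicate 3). Family levels summed over different sets of values, an alternative chosen after seeing the data, moved by less than the spread between replicates. Levels under the smallest values of the DS libraries (3.94 to 4.21) cannot be compared between DS and CK at these depths.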
